A study of Homo sapiens with 6 samples.

Results

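Immune checkpoint ligands are proteins that a tumour cell shows or sheds and that restrain T cells, natural killer cells or macrophages. The 9 genes described here were taken by name from a fixed list, CD274, PDCD1LG2, CD276, VTCN1, CD47, NT5E, PVR, NECTIN2 and LGALS9, out of 61015 genes with a transcript on file. All 9 were found, with 76 transcripts between them, and all 9 passed the expression filter. They were measured in the human line MDA-MB-231, a triple-negative breast cancer line, after it was made resistant to paclitaxel (PTX), a drug that stabilises microtubules. Every library came from these PTX-resistant cells after fluorescence-activated sorting on aldehyde dehydrogenase (ALDH) activity with the ALDEFLUOR substrate, with dead cells gated out by propidium iodide. The 3 BCSC libraries held ALDH+ breast cancer stem-like cells and the 3 non-BCSC libraries held the ALDH− remainder. The sample titles gave the groups, since all 6 libraries carried 1 cell type label. A single cell line was sequenced, no untreated or PTX-sensitive parent is among the libraries used here, and nothing in the labels says that replicates were separate cultures.

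Checkpoint ligands act in pairs with receptors on immune cells. PD-L1 (CD274) and PD-L2 (PDCD1LG2) bind PD-1 on T cells and damp T cell receptor signalling, while CD47 binds SIRPα on macrophages and blocks engulfment. CD73 (NT5E) differs from the others in that it is an enzyme, which makes adenosine outside the cell for adenosine receptors on T cells, and PVR and NECTIN2 are read by the inhibitory receptor TIGIT and the activating receptor CD226 alike.

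The libraries held 15925943 to 21215352 counts in BCSC and 9898588 to 12263667 in non-BCSC, so that the limit set by a count of 0 (3 counts) ran from 0.141 to 0.303 CPM (counts after scaling for library size). All levels below are gene sums, the counts of all transcripts of a gene, in CPM on TMM library sizes unless a scale per kb is named. Of 9 markers expected in the line, VIM and CD44 were the most abundant. VIM was at 3418 ± 412 CPM in BCSC against 2793 ± 506 in non-BCSC, and CD44 at 2644 ± 158 and 1456 ± 195 (SD, n = 3). The keratin KRT8 was lower in BCSC, at 6.59 ± 1.82 against 58.6 ± 10.01 CPM. Olfactory receptor genes, which breast cells are not known to use, are a gauge of stray signal. Their 406 members together took 39.5 to 151 CPM in BCSC and 538 to 1230 in non-BCSC. Fold changes also moved with GC content, the share of G and C bases in a gene's transcripts, from a median log2 fold change of -0.65 in the lowest to 1.01 in the highest of 5 equal groups of genes ranked by GC. The part of either in the values below was measured only through the corrected fits named beside them.

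NT5E and CD276 were the checkpoint ligand genes called higher in BCSC, and PVR and CD47 passed the adjusted p with a smaller fold. A gene was called at a Benjamini-Hochberg (BH) adjusted p under 0.05 in edgeR's quasi-likelihood test and a log2 fold change (BCSC over non-BCSC) beyond 1. By that rule 2 of 9 were called, both higher and 0 lower, against 20.1% of the 20442 genes tested in either direction, 8.85% higher and 11.3% lower. The share called is thus close to that of all genes. With no minimum fold 4 of 9 were higher and 0 lower, where 15.3% of all genes were higher and 14.6% lower. In 5 of 9 every BCSC library lay above every non-BCSC library and in 0 below, against 24.2% and 27.9% of all genes. The median log2 fold change was 0.79 over the 9 genes and -0.05 over all genes tested. Summed over the 9 genes, the level was 502 to 566 CPM in BCSC and 264 to 283 CPM in non-BCSC. In bulk RNA, fewer cells that use a gene and less of its RNA per cell cannot be told apart.

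**Figure D1:**
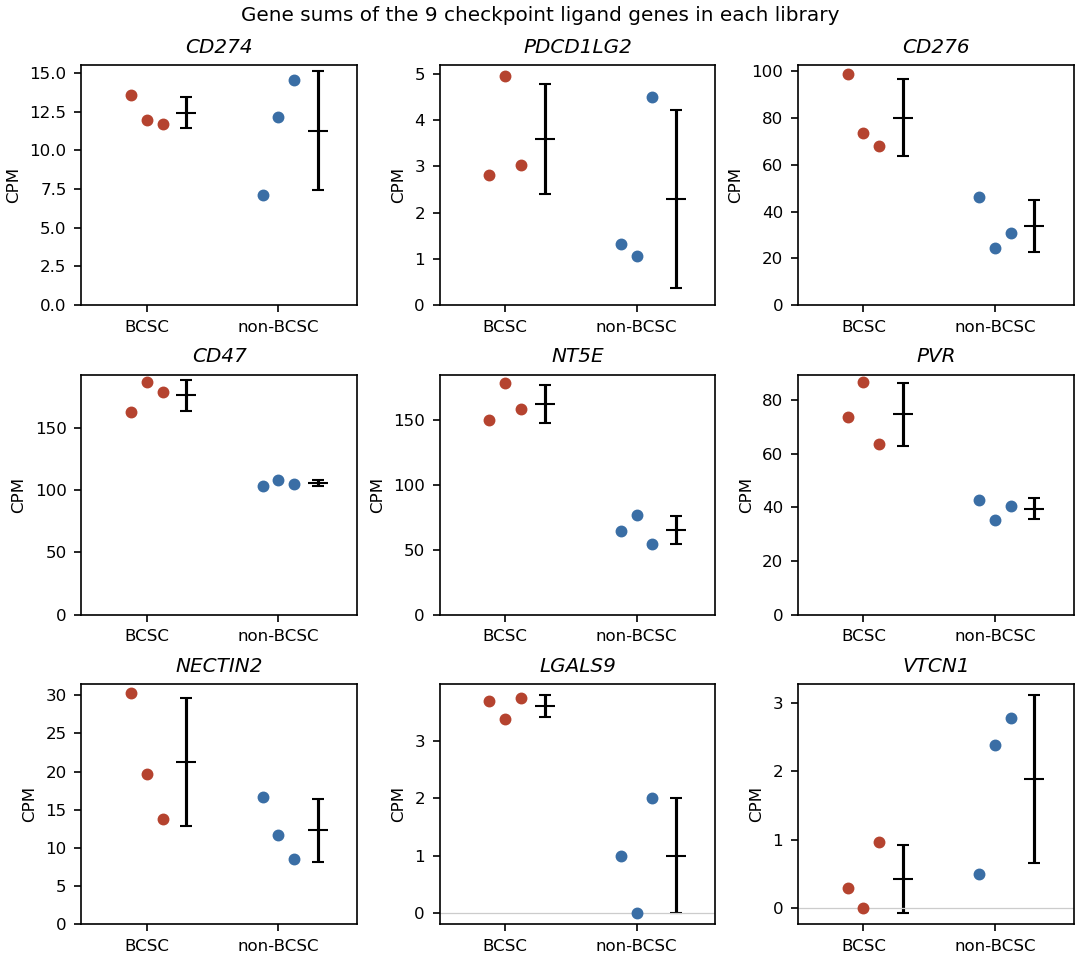
Gene sums of the 9 checkpoint ligand genes, in CPM on a linear axis from 0, with 1 point per library (red BCSC, blue non-BCSC) and the mean ± SD of 3 libraries in black. NT5E, CD276, CD47, PVR and LGALS9 have all 3 BCSC points above the non-BCSC points, and the other 4 genes overlap.

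CD274 (ENSG00000120217.14, GRCh37 chr9:5450503-5470566, plus strand) encodes PD-L1, which interferon gamma raises through IRF1. Its promoter is shown because it carries the interferon motif that IRF1 and its kin bind. The 250 bases upstream of the start (RefSeq, GRCh38.p14 chr9:5450292-5450541, plus strand) are printed with the motif in capitals, read here from the opposite strand. The motif searched was GAAA, 2 bases of any kind and GAAA on either strand, and the pair of matches overlap in a shared TTTC.
CD274 promoter: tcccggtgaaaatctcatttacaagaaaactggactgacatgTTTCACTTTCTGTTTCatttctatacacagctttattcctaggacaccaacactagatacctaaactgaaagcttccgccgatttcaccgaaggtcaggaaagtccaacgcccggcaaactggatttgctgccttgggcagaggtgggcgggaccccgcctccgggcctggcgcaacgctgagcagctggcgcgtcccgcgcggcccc
That motif was found in 3.02% of 35116 promoters of the same length, and among the 8 checkpoint ligand genes with a promoter on file it was found in CD274 alone. A match describes the letters and is no measure of binding.

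CD274 stood at 13.6, 12 and 11.7 CPM in BCSC libraries 1 to 3 and at 7.10, 12.2 and 14.6 CPM in the non-BCSC libraries. The BCSC values lay within the non-BCSC range, so the groups overlapped. The log2 fold change was 0.14 with a standard error (SE) of 0.33 (BH-adjusted p = 0.768), and without non-BCSC replicate 1, the lowest library, it was -0.05. Under the correction for GC content and length it was 0.82 (adjusted p = 0.06). A lncRNA on the opposite strand, ENSG00000286162, overlaps both PD-1 ligand genes. It held 155 counts over the 6 libraries, which equals 15.1% of the counts of CD274 and 60.1% of those of PDCD1LG2.

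PDCD1LG2 (chr9:5510531-5571282, plus strand), the gene for PD-L2, was at 2.81, 4.96 and 3.02 CPM in BCSC against 1.32, 1.06 and 4.51 in non-BCSC. Non-BCSC library 3 lay among the BCSC values, and the log2 fold change of 0.65 (SE 0.74) had an adjusted p of 0.533. It was 1.61 (adjusted p = 0.136) without non-BCSC replicate 3, 1.44 (adjusted p = 0.146) with the GC and length correction, and 2.75 (SE 1.63, adjusted p = 0.248) with the olfactory receptor level removed. That removal took away all counts of non-BCSC libraries 1 and 2, so the last value rests on what was left in library 3. In non-BCSC its mean count per kb was 0.902 times that of the olfactory receptor genes, against 20.1 times in BCSC, so the non-BCSC level was no higher than the stray signal.

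CD276 (ENSG00000103855.18, chr15:73976307-74006855, plus strand) encodes B7-H3, a B7 family protein common on solid tumours whose receptor on T cells is debated. It was at 98.8, 73.5 and 68.2 CPM in BCSC against 46.1, 24.4 and 31.0 in non-BCSC. The lowest BCSC library exceeded the highest non-BCSC library. The mean was 80.1 ± 16.3 CPM against 33.8 ± 11.1 (SD, n = 3), a log2 fold change of 1.24 (SE 0.24, adjusted p = 0.00638), and the call held in 6 of 6 fits that left out a library. The transcripts of CD276 are 59.8% GC, in the GC group of genes whose median was 1.01. After the GC and length correction its log2 fold change was -0.23 (SE 0.17, adjusted p = 0.325), so the call ended and the direction turned.

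VTCN1 (chr1:117686209-117753582, minus strand) encodes B7-H4, which inhibits T cells. It held 6, 0 and 16 counts in BCSC against 6, 27 and 29 in non-BCSC, or 0.421 ± 0.496 and 1.89 ± 1.22 CPM. BCSC library 3 lay above non-BCSC library 1, and the adjusted p was 0.249. Both groups lay near the olfactory receptor level, at 1.41 and 0.701 times its count per kb.

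CD47 (ENSG00000196776.17, chr3:107761938-107810709, minus strand), the signal read by SIRPα on macrophages, was among the most abundant of the 9 genes. It stood at 162.8, 186.9 and 178.5 CPM in BCSC against 103.3, 108.2 and 105.1 in non-BCSC. The groups did not overlap and the non-BCSC libraries lay close together. The means were 176 ± 12.3 and 106 ± 2.48 CPM, and the log2 fold change of 0.74 (SE 0.10, adjusted p = 0.00164) missed the minimum fold. The transcripts of CD47 are 37.3% GC, at the low end, and with the GC and length correction the log2 fold change was 1.29 (adjusted p = 0.000113), which passed both limits.
The promoter of CD47 is shown because HIF1, the hypoxia factor that the study follows, can act on this gene. The 250 bases upstream (RefSeq, GRCh38.p14 chr3:108091032-108091281, minus strand) hold 1 match, in capitals, to ACGTG, a form of the hypoxia response core. It was searched on both strands, and 18.5% of all promoters of that length hold it. A promoter of CD276 also holds 1 match to ACGTG, and no other checkpoint ligand gene with a promoter on file holds that form. The form GCGTG was not searched and is not marked.
CD47 promoter: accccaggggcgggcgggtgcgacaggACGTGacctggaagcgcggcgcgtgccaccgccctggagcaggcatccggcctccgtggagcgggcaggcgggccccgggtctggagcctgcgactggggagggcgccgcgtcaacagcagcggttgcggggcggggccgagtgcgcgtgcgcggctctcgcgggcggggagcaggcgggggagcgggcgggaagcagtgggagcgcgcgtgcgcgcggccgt
This promoter is 79.6% GC, against a median of 58.0% over all promoters on file, and 6 matches to the GC box GGGCGG lie in it, a motif found in 42.6% of promoters. Another promoter of CD276 holds 7 GC box matches.

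NT5E (ENSG00000135318.12, chr6:86159302-86205509, plus strand) encodes CD73, which turns AMP into adenosine at the cell surface. It was at 150.5, 179.1 and 158.8 CPM in BCSC against 64.4, 76.9 and 54.9 in non-BCSC. Every BCSC library lay well above the highest non-BCSC library. The means were 163 ± 14.7 and 65.4 ± 11.04 CPM (SD, n = 3), a log2 fold change of 1.32 (SE 0.15, adjusted p = 0.000582). NT5E was called in 6 of 6 fits with a library left out, from 1.23 to 1.49 on the log2 scale. With the GC and length correction the log2 fold change was 1.75, and with the olfactory receptor level removed it was 1.09 (adjusted p = 0.00331).

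PVR (ENSG00000073008.16, chr19:45147098-45169430, plus strand) encodes CD155, a ligand of TIGIT, CD96 and CD226. Its levels were 73.8, 86.9 and 63.6 CPM in BCSC against 42.8, 35.3 and 40.6 in non-BCSC. The groups did not overlap. The log2 fold change was 0.92 (SE 0.16, adjusted p = 0.00433), just under the minimum, and it passed once BCSC replicate 3 (1.01) or non-BCSC replicate 1 (1.03) was left out. With the GC and length correction it was 0.23 (adjusted p = 0.266). The gene CEACAM19 overlaps PVR on the same strand and held 379 counts, or 7.26% of those of PVR.

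NECTIN2 (ENSG00000130202.10, chr19:45349432-45392480, plus strand) encodes CD112, which binds TIGIT, PVRIG and CD226. It was at 30.3, 19.7 and 13.7 CPM in BCSC against 16.7, 11.7 and 8.54 in non-BCSC. BCSC library 3 lay below non-BCSC library 1, and the log2 fold change was 0.79 (SE 0.36, adjusted p = 0.121). NECTIN2 had the highest GC content of the 9 genes, 61.2%, and under the GC and length correction its log2 fold change was -0.87 (adjusted p = 0.0137), in the opposite direction and under the minimum fold.

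LGALS9 (ENSG00000168961.17, chr17:25956824-25976586, plus strand) encodes galectin-9, a ligand of TIM-3. It held 75, 52 and 62 counts in BCSC against 12, 0 and 21 in non-BCSC. The BCSC libraries were even, at 3.61 ± 0.192 CPM, and all above the non-BCSC libraries at 1.001 ± 1.01. The log2 fold change was 1.85 (SE 1.10, adjusted p = 0.225). In non-BCSC its count per kb was 0.383 times the olfactory receptor level. Removing that level set every non-BCSC library to 0. The call that followed (adjusted p = 0.0137) rests on those zeros and is no evidence of a change. With the GC and length correction its log2 fold change was 0.80 (SE 1.06, adjusted p = 0.602), and without non-BCSC replicate 3 it was 2.85 (adjusted p = 0.134). Its near-identical copies LGALS9B and LGALS9C held at most 0.743 CPM in total in any library.

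**Figure D2:**
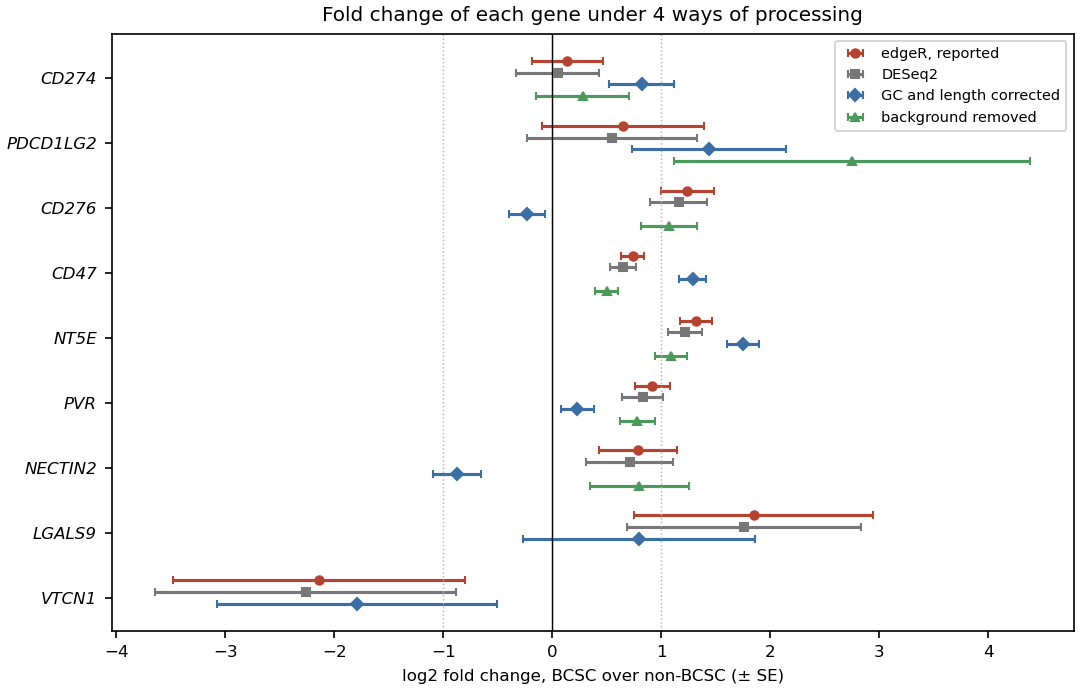
Log2 fold change of each gene (points, bars ± SE) from edgeR as reported, DESeq2, edgeR with the GC and length correction, and edgeR with the olfactory receptor level removed, with dotted lines at -1 and 1. NT5E is above 1 in all 4, and CD276 and NECTIN2 change side under the GC correction. The background-removed value is left out for LGALS9, whose non-BCSC counts that step set to 0, and was not fitted for VTCN1.

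The 3 genes highest in GC (NECTIN2, CD276 and LGALS9, 55.2 to 61.2%) had log2 fold changes of 0.79, 1.24 and 1.85, and NECTIN2 lay below the 1.01 median of genes of like GC. CD47 and NT5E lay at 37.3 and 42.9% GC, where the median gene was lower in BCSC, with 0.74 and 1.32. VTCN1, at 44.6% GC, lay further below the median of its group, at -2.14 against -0.25, while CD274, PDCD1LG2 and PVR lay above theirs. This is a description of 9 genes and carries no test.

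**Figure D3:**
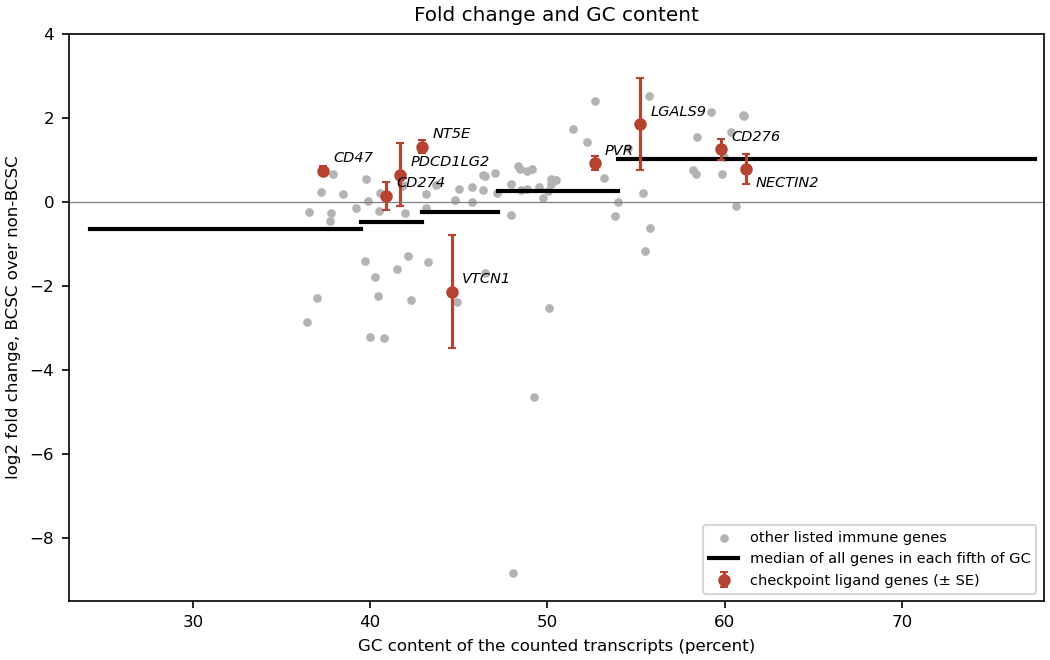
Log2 fold change (vertical) against the GC content of the counted transcripts in percent (horizontal) for the 9 checkpoint ligand genes (red, bars ± SE) and the other immune genes tested (grey), with black lines at the median of all genes in each of 5 equal GC groups. The medians climb from -0.65 to 1.01. VTCN1 and, by less, NECTIN2 sit below the line of their group, and the other checkpoint ligand genes sit above theirs.

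To compare levels between genes, each transcript's CPM was divided by its length and summed, in CPM per kb. In BCSC the order was NT5E (46.3 ± 3.93 CPM per kb), CD47 (33.0 ± 2.73), CD276 (25.9 ± 4.09), PVR (18.5 ± 3.28), NECTIN2 (8.46 ± 3.06), CD274 (4.72 ± 1.23), LGALS9 (2.01 ± 0.418), PDCD1LG2 (1.48 ± 0.487) and VTCN1 (0.160 ± 0.191). The libraries of neighbours overlapped only for CD47 with CD276 and for LGALS9 with PDCD1LG2. In non-BCSC, CD47 (19.8 ± 0.432 CPM per kb) and NT5E (19.4 ± 2.86) stood together at the top, before CD276 (11.6 ± 4.61) and PVR (8.88 ± 2.76). NECTIN2 (4.87 ± 1.62) and CD274 (3.53 ± 1.40) followed, then PDCD1LG2 (0.944 ± 0.789), VTCN1 (0.697 ± 0.444) and LGALS9 (0.334 ± 0.334). There the libraries of all neighbours overlapped except those of CD274 and PDCD1LG2. NT5E, CD47, CD276 and PVR thus led in both fractions, and both PD-1 ligand genes were lower. For PVR, outside non-BCSC library 1, most counts fell on transcripts that retain an intron and have no coding frame, as given below. With the mean length of a gene's transcripts in place of each transcript's own, CD276 (63.0 CPM per kb) stood above CD47 (55.3) in BCSC, and VTCN1 (0.983) above PDCD1LG2 (0.944) in non-BCSC.

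At the level of single transcripts, 21 of the 76 were tested and 0 were called, against 0.784% of the 46176 transcripts tested (0.593% higher and 0.191% lower). At an unadjusted p under 0.05 there were 3, and DESeq2 called 2, NT5E-201 and CD276-202. In 5 of 21 every BCSC library lay above every non-BCSC library and in 0 below, against 17.6% and 15.1% of all transcripts. Of the 21, 12 held a mean of at least 50 counts.

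NT5E-201, which encodes the full enzyme of 574 residues, held 2798, 2062 and 2353 counts in BCSC against 728, 422 and 560 in non-BCSC. The groups did not overlap, and the log2 fold change of 1.54 had an adjusted p of 0.0559, the lowest of these transcripts. NT5E-203 lacks exon 7 (150 bases, GRCh37 chr6:86200226-86200375, plus strand) and encodes a shorter CD73 of 524 residues. That exon is shown, with capitals for the bases NT5E-203 lacks, because it is what separates the forms.
NT5E exon 7: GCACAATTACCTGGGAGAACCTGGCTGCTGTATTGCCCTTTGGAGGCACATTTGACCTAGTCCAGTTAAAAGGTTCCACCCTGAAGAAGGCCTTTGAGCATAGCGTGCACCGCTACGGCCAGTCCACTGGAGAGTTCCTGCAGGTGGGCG
NT5E-203 held 236, 658 and 248 counts in BCSC against 28, 425 and 0 in non-BCSC. Library 2 of each group was the highest and the groups overlapped. NT5E-201 made up 85.5% ± 8.999 of the gene's counts in BCSC and 79.9% ± 27.3 in non-BCSC (SD, n = 3).

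CD47-201, which encodes a form of 305 residues, held 2425, 2488 and 2391 counts in BCSC against 960, 910 and 883 in non-BCSC. The BCSC libraries were uniformly higher, and the log2 fold change was 0.88 (adjusted p = 0.0725). It lacks exons 9 and 10 of CD47-202, both in the part of the gene for the tail inside the cell. They are shown in capitals because this tail is what differs between CD47 forms (GRCh37 chr3:107769425-107769449 and chr3:107768466-107768498, minus strand).
CD47 exon 9: AAAGCTGTAGAGGAACCCCTTAATG
CD47 exon 10: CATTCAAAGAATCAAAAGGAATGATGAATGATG
CD47-202 held 147, 0 and 35 counts in BCSC against 161, 7 and 4 in non-BCSC, and replicate 1 was the highest in both groups. CD47-204, which retains an intron and has no coding frame in the annotation, held 724, 369 and 523 counts in BCSC against 131, 305 and 205 in non-BCSC. Every BCSC count was higher, but in the deeper libraries, and scaled to depth the groups overlapped (adjusted p = 0.503). CD47-201 made up 80.4% ± 6.74 of the gene's counts in BCSC and 77.2% ± 3.17 in non-BCSC.

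PVR has membrane forms and secreted forms, which lack the segment that anchors the protein. Exon 6 (159 bases, GRCh37 chr19:45162010-45162168, plus strand) carries that segment. It is shown as read from PVR-205, with capitals for the 135 bases that the secreted form PVR-203 lacks. PVR-202, also secreted, lacks the whole exon.
PVR exon 6: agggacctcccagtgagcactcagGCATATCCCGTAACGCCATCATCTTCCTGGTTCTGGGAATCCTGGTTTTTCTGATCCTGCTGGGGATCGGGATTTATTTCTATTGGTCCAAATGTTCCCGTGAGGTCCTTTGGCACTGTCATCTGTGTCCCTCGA
PVR-203 held 73, 180 and 123 counts in BCSC against 0, 0 and 16 in non-BCSC. The groups did not overlap, but the fit gave an adjusted p of 0.361. PVR-202 held 328, 0 and 59 counts in BCSC against 234, 0 and 0 in non-BCSC, with replicate 1 the highest in both. Together the secreted forms held 14.2 ± 4.85 CPM in BCSC against 6.95 ± 10.7 in non-BCSC, and the membrane forms PVR-204 and PVR-205 held 2.92 ± 2.67 and 3.76 ± 2.84 CPM. For each kind of form the difference was smaller than the SD of the non-BCSC libraries.
Outside non-BCSC library 1, most PVR counts fell on transcripts that retain an intron, PVR-209 and PVR-212. Their share was 72.3% ± 9.77 in BCSC and 68.8% ± 34.1 in non-BCSC. In non-BCSC library 1 it was 30.7%, and coding transcripts held 69.3%. PVR-209 held 721, 501 and 226 counts in BCSC against 109, 385 and 293 in non-BCSC, which overlapped. PVR-212 held 198, 563 and 571 in BCSC against 50, 0 and 43 in non-BCSC, which did not (adjusted p = 0.379).

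**Figure D4:**
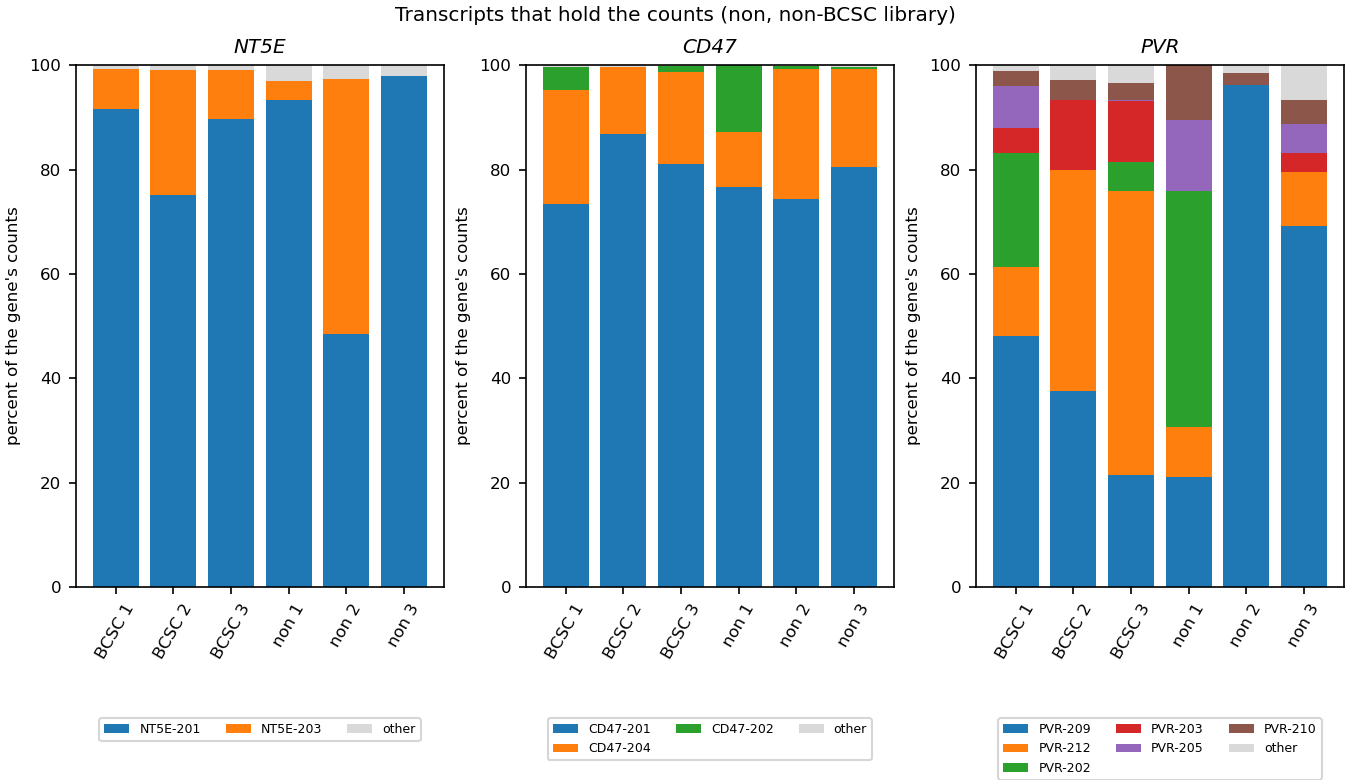
Percent of the counts of NT5E, CD47 and PVR (vertical, 0 to 100) that each transcript holds in each of the 6 libraries, with transcripts of a mean under 20 counts joined as other. CD47-201 leads in every library, NT5E-203 reaches its highest share in non-BCSC library 2, and PVR shifts between PVR-209, PVR-212 and PVR-202 from library to library.

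CD276-202, the form of 534 residues, held 1964, 1087 and 991 counts in BCSC against 449, 271 and 299 in non-BCSC. The groups did not overlap (log2 fold change 1.43, adjusted p = 0.091), and it made up 94.1% ± 5.47 and 90.4% ± 9.06 of the gene's counts. CD274-202, the main PD-L1 form of 290 residues, held 253, 168 and 167 counts in BCSC against 86, 109 and 152 in non-BCSC. Here every BCSC library was higher by count, but the BCSC libraries are also the deeper ones (adjusted p = 0.902). NECTIN2-201 made up 89.7% ± 5.01 of NECTIN2 counts in BCSC and 89.7% ± 4.86 in non-BCSC, with 561, 254 and 213 against 170, 121 and 83 counts.

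The genes around these ligands were taken from 5 lists. Of their members, 14 were called, 9 higher and 5 lower in BCSC. Beside each list's counts stand the 8.85% and 11.3% of all genes called higher and lower.

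Among 28 genes that control PD-L1 (interferon signalling, NF-κB, and the stability and glycosylation of the protein), 26 were tested, 5 were higher and 0 lower, with a median log2 fold change of 0.42. IRF1, the interferon factor that acts on the CD274 promoter, was at 47.4, 36.5 and 30.9 CPM in BCSC against 7.84, 7.16 and 6.91 in non-BCSC. It was higher in all 3 BCSC libraries by 2.39 on the log2 scale (SE 0.24, adjusted p = 0.000391), and it was called in every fit run. RELA, the p65 subunit of NF-κB, was higher by 1.53 (adjusted p = 0.00365), and CDK4, whose kinase activity lowers PD-L1 protein, by 1.42 (adjusted p = 0.00266). HIP1R, which routes PD-L1 to lysosomes, was higher by 2.06 (adjusted p = 0.0135). With the GC and length correction IRF1 kept a call while RELA (0.15), CDK4 (0.74) and HIP1R (0.49) did not. HIP1R also lost its call without BCSC replicate 1 (1.6) or non-BCSC replicate 2 (2.0), and with the olfactory receptor level removed (3.62, SE 1.51, adjusted p = 0.112). IRF9, named after its values were seen, was the other gene called, at 1.27 (adjusted p = 0.0189). It lost its call without BCSC replicate 2 (1.32, adjusted p = 0.0656) or 3 (1.12, adjusted p = 0.0657), with the GC and length correction (0.38, adjusted p = 0.409), and with the olfactory receptor level removed (1.56, adjusted p = 0.0892).

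Among 30 other checkpoint and co-stimulatory ligands, 20 were tested, 2 were higher and 2 lower, with a median log2 fold change of 0.23. CD70, the ligand of CD27 on lymphocytes, was at 115.3, 70.9 and 58.2 CPM in BCSC against 29.1, 15.8 and 10.8 in non-BCSC. The groups were far apart (log2 fold change 2.13, SE 0.37, adjusted p = 0.00376), and with the GC and length correction the value was 0.88, under the minimum fold. NECTIN1, a relative of NECTIN2 that binds CD96, was higher by 1.66 (adjusted p = 0.014). It lost its call without BCSC replicate 1 (1.26), non-BCSC replicate 2 (1.58) or non-BCSC replicate 3 (1.48), with the GC and length correction (0.30), and with the olfactory receptor level removed (2.64, SE 1.14, adjusted p = 0.124). CD200, whose receptor restrains myeloid cells, held 0 counts in all 3 BCSC libraries and 74, 20 and 43 in non-BCSC. Against the floor of 3 counts per library it was at least 22.9-fold lower in BCSC (adjusted p = 0.00478). Its non-BCSC level was 3.51 times that of the olfactory receptor genes. CD200 was not fitted with that level removed, so the fold limit is from uncorrected counts. CD40, an activating receptor on antigen-presenting cells, held 0, 0 and 4 counts in BCSC against 15, 31 and 27 in non-BCSC (adjusted p = 0.0372). Its non-BCSC level was 0.899 times that of the olfactory receptor genes, and its call was lost without BCSC replicate 1 (-4.03), BCSC replicate 2 (-4.09), non-BCSC replicate 1 (-4.88), 2 (-4.41) or 3 (-4.49). CD24, also on the list, was not analysed here.

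In the adenosine pathway around NT5E (19 genes), 12 were tested, 1 was higher and 2 lower, with a median log2 fold change of 0.11. SLC29A1, the transporter that carries adenosine across the membrane, was at 47.0, 29.9 and 32.7 CPM in BCSC against 9.9, 5.30 and 3.93 in non-BCSC. It was higher by 2.51 (SE 0.36, adjusted p = 0.00179) and was called in every fit run, with a smaller value of 1.46 under the GC and length correction. ENTPD1 (CD39), which makes the AMP that CD73 uses, was lower by the test, at 3.50 ± 0.541 CPM against 10.7 ± 4.42 (log2 fold change -1.61, adjusted p = 0.0217). DPP4 (CD26), which holds adenosine deaminase at the surface, was at 1.14 ± 0.509 CPM against 10.9 ± 1.96 (-3.25, adjusted p = 0.00229). In non-BCSC both lay near the olfactory receptor level, at 1.10 and 1.87 times its count per kb. Once that level was removed DPP4 was called still (-3.50) and ENTPD1 was not (-0.41). ENTPD1 was also lost without any library but non-BCSC replicate 2, with values of -1.57, -1.71 and -1.53 without BCSC replicates 1, 2 and 3, and of -1.20 and -1.61 without non-BCSC replicates 1 and 3.

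Of 12 partners of CD47 (SIRP receptors, thrombospondins, and the enzymes QPCT and QPCTL that finish its SIRPα site), 10 were tested, 1 was higher and 0 lower, with a median of 0.38. THBS2, a secreted thrombospondin, was at 15.3, 11.6 and 12.8 CPM in BCSC against 5.2, 3.89 and 2.78 in non-BCSC. The groups did not overlap (log2 fold change 1.74, SE 0.37, adjusted p = 0.00916). Its non-BCSC level was 0.850 times the olfactory receptor level, and once that was removed the log2 fold change was larger but wider in error, at 4.36 (SE 1.41), and the adjusted p was 0.053. That removal took away all counts of non-BCSC libraries 2 and 3.

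**Figure D5:**
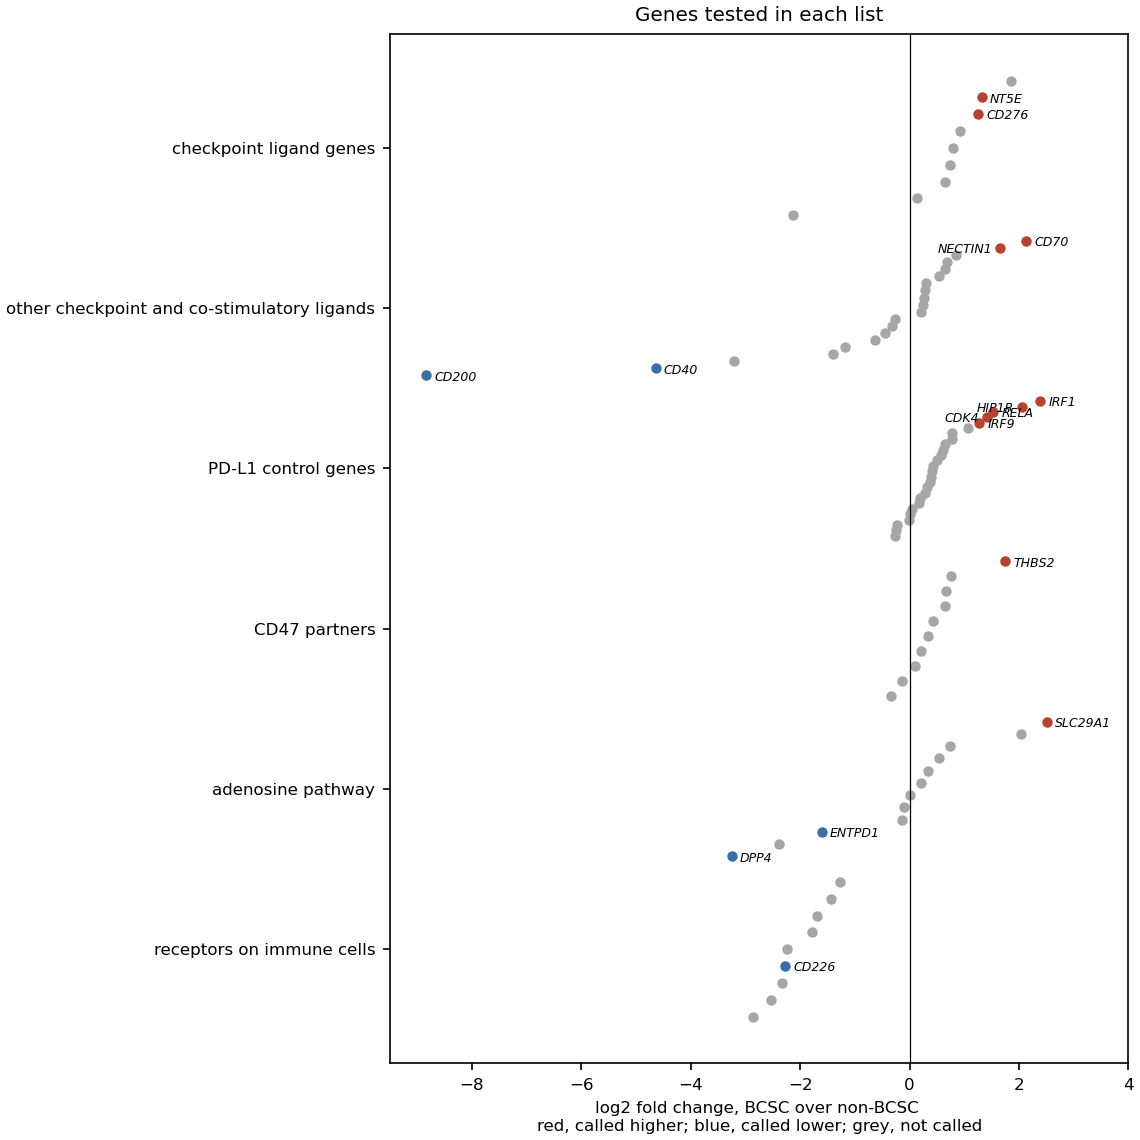
Log2 fold change (horizontal) of every gene tested in the checkpoint ligand list and the 5 surrounding lists, 1 point per gene in order within its list, with red for genes called higher in BCSC, blue for lower and grey for not called. The PD-L1 control genes lie mostly right of 0, and all receptors on immune cells lie left of it, while the fitted position of CD200, at 0 counts in BCSC, depends on the prior count.

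The receptors that read these ligands belong to immune cells. Of 14, 9 were tested, 0 were higher and 1 was lower, with a median log2 fold change of -2.24. Their summed level was 5.37 to 10.9 CPM in BCSC and 18.5 to 43.4 CPM in non-BCSC, and all 14 lay under 2 times the olfactory receptor count per kb in non-BCSC. CD226, the activating receptor for PVR and NECTIN2, was at 2.31 ± 0.990 CPM in BCSC against 11.2 ± 6.02 in non-BCSC (adjusted p = 0.0132), 1.06 times the olfactory receptor level. It lost its call without BCSC replicate 1 (-2.11), BCSC replicate 2 (-2.07) or non-BCSC replicate 2 (-1.76), and with the olfactory receptor level removed (-1.48, SE 1.88, adjusted p = 0.597). Leukocyte markers were as low. Of 16, 3 were tested, 1 was higher and 1 lower, and their sum was 3.79 to 5.02 CPM in BCSC and 19.8 to 39.9 CPM in non-BCSC. PTPRC (CD45), found on all leukocytes, held 4, 6 and 19 counts in BCSC against 160, 256 and 216 in non-BCSC (adjusted p = 0.00085), 4.56 times the olfactory receptor level. The macrophage marker CD68, which tumour lines also use, held 48, 50 and 26 counts in BCSC against 0, 1 and 0 in non-BCSC, while NKG7 and TYROBP were at 0 in all libraries. The part of other cells in the ligand levels was not tested.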

How the data were processed

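Long non-coding RNA libraries (total RNA, random primers, second strand marked with dUTP) were used, 3 of BCSC and 3 of non-BCSC. The values deposited by the authors are estimated counts per transcript in whole numbers, neither normalized nor filtered. HISAT2 aligned the reads, to hg19 by the study's methods and to hg38 by the submitters' processing notes, which also name featureCounts and DESeq2 with no role. The counter and annotation release are not given in the sources used here, nor is the use of strand in counting. Identifiers, not positions, were therefore matched to GENCODE 44 on GRCh37, and 249787 of 252618 transcripts (98.9%) matched, 2827 did not, and 4 assembler-made identifiers were left out of all tests.

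Counts were summed per annotated gene and tested in edgeR 4.0.16 (R 4.3.3) with its expression filter, TMM normalization and a robust quasi-likelihood fit on group. P-values are two-sided and BH-adjusted over all 20442 genes or 46176 transcripts tested. A feature was called at an adjusted p under 0.05 and a fold over 2, the limits of the study's RNA-seq methods. For its lncRNA comparison of BCSC with non-BCSC the paper gives a fold over 2 and a P under 0.05, with no adjustment named. Common biological variation (coefficient) was 0.453 for genes and 1.02 for transcripts. Alternatives were RLE size factors, DESeq2 1.42.0, other filters on low counts, a replicate block, a loess correction (span 0.3) for GC content and length per library, removal of the olfactory receptor count per kb, thinning to the smallest library, other thresholds and each library left out. The gene test was tried on simulated counts without a GC trend or stray signal, and its outcome is not given here. That trial did not cover transcripts. With 3 against 3 libraries an exact permutation test cannot go below 0.1, so none was used.

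The 9 genes, the lists and the tests were chosen with earlier results of these data known. Named genes were all 9, their transcripts that averaged 50 counts or more, and of each list up to 4 called genes each way. PVR-204 and PVR-205 are named beside these as the membrane forms. Replicates may be technical, and p-values then measure only the spread between these libraries. Reads carry no molecular identifiers, so count limits cover counting error only. Promoter sequences are from RefSeq (8 of 9 genes matched), exons from GENCODE transcripts.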

Additional observations from a re-analysis of the deposited data

How the results depend on the processing

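NT5E was called in every fit run on gene sums, and CD276 in all but those with the GC and length correction. The count of checkpoint ligand genes called (2) was 4 with no minimum fold and 0 with transcripts as deposited. With the correction it was again 2, but NT5E and CD47, so that 1 gene was shared. Removing the olfactory receptor level gave 3, adding LGALS9, whose non-BCSC counts that step set to 0. The same step emptied some of the non-BCSC libraries for PDCD1LG2, THBS2, HIP1R, NECTIN1, ENTPD1 and CD226. Their values after it rest on the few counts left. Leaving out a library gave 2 to 3. For their transcripts (0 called), an unadjusted p gave 2, DESeq2 2, the GC and length correction 2 and a filter of 10 counts in every library 1. The 14 surrounding genes became 24 with no minimum fold and 9 with the olfactory receptor level removed, of which 6 were shared with the 14. With the GC and length correction 13 were called and 8 were shared. The count ran from 9 (without BCSC replicate 1) to 13 with a library left out.

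The direction turned for CD276 under the GC and length correction (-0.23, and -0.22 with the replicate block) and for NECTIN2 (-0.87 and -0.86). CD274 was -0.01 under the filter of 10 counts in every library and ran from -0.05 to 0.39 with a library left out. Over all genes, the share of higher calls was 44%, against 33.7% in DESeq2, 54.0% under the filter of 10 counts and 66.6% with the olfactory receptor level removed.

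Same-numbered libraries deviated together with r of 0.179, 0.014 and 0.219 across genes, for each non-BCSC library its highest value. BCSC library 3 gave -0.2 with non-BCSC library 1, and BCSC library 1 gave -0.186 with non-BCSC library 3. BCSC library 2 correlated best with non-BCSC library 1 (0.054). These values do not settle whether the numbers pair the libraries, and pairing entered only as the replicate block. With that block NECTIN2 had a log2 fold change of 0.77 (adjusted p = 0.03), against an adjusted p of 0.121 without it. With the replicate block 2 checkpoint ligand genes and 15 surrounding genes were called, and 0 of all transcripts in place of 362.

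Levels per kb moved for 13 of 18 values when mean transcript length was used, that of CD276 in BCSC from 25.9 to 63.0. Depth limits VTCN1, LGALS9 and PDCD1LG2 most, where non-BCSC counts were at most 47.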
